A study of Mus musculus with 73 samples.

Results

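Single cells sorted as lung macrophages were examined for 10 genes of matrix proteins and of the enzymes and receptors that act on matrix, namely Thbs1, Fn1, Spp1, Vcan, F13a1, Mmp12, Mmp14, Mmp19, Timp2 and Plaur. These genes were chosen by name, as 10 of the 23994 gene rows of the expression table. No value entered the rule, but earlier results of these data were known when the genes were chosen. The 73 cells all came from 1 mouse carrying a Csf1r-GFP reporter on a B6 background, an adult of 10 weeks, taken 7 days after pneumonectomy. Pneumonectomy is the surgical removal of a lung, after which the remaining lobes grow. The sort gate was CD45+, CSF1R-GFP+ and F4/80+, and Ly6G is named with no sign. Csf1r drives the reporter in monocytes and macrophages, so the gate does not separate these cell types. No unoperated animal enters these comparisons, and no value below is a change caused by the operation. Because all cells share 1 mouse, cells are not replicates, SDs describe the spread between cells, and no p-value was computed.

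The extracellular matrix is the protein and sugar scaffold around cells, and it is rebuilt when a lung lobe grows or heals. Macrophages and monocytes can secrete matrix proteins such as fibronectin, can crosslink them with transglutaminases, and can cut them with metalloproteinases, whose activity tissue inhibitors hold down. The urokinase receptor gathers plasminogen activator at the cell surface, where it starts the cascade that dissolves fibrin.

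Expression was given as FPKM, a fragment count scaled by transcript length and library depth, and a gene was called detected in a cell at FPKM of 1 or more. Cells held a median of 1408833 mouse fragments (347003 to 3485929) and a median of 2290 detected genes (1044 to 3745). The gate's own genes were found in most cells, with Ptprc, which encodes CD45, in 69 cells, Csf1r in 65 and Emr1, which encodes F4/80, in 41. Clustering without the matrix genes gave 50 classical-monocyte-like cells, led by Ifitm3, Plac8 and Ly6c2. It also gave 12 alveolar-macrophage-like cells led by Cd9, Ear2 and Plet1, 6 interstitial-macrophage-like cells led by C1qb, C1qa and C1qc, and 5 cells that stayed unnamed, led by H2-Aa and Stmn1. These names were rebuilt from marker genes and are not the authors' annotation. The label "macrophages" therefore covers a majority of cells, 68.5% (exact Clopper-Pearson 95% interval 56.6 to 78.9), whose leading genes are those of classical monocytes. Other clustering settings gave 2 to 4 clusters, with 47 to 61 cells in the largest. The 5 unnamed cells had the highest median depth, with 3219634 mouse fragments against 1392921, 1057394 and 1355744 in the monocyte-like, alveolar-like and interstitial-like cells.

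Promoter sequence is shown for 4 of the genes because they stand for the contrasting patterns described below: Vcan and F13a1, found in monocyte-like cells and in no alveolar-like cell, Spp1, found mostly in alveolar-like cells, and Plaur, found in nearly all cells of both. Each line gives the 250 bases just before the gene's first listed transcription start, read 5′ to 3′ on the gene's strand, from the RefSeq promoter table (GRCm38.p6), with motif matches in capitals. The windows are chr13:89742513-89742762 on the minus strand for Vcan, chr13:37050245-37050494 on the minus strand for F13a1, chr5:104434861-104435110 on the plus strand for Spp1 and chr7:24462233-24462482 on the plus strand for Plaur.
Vcan: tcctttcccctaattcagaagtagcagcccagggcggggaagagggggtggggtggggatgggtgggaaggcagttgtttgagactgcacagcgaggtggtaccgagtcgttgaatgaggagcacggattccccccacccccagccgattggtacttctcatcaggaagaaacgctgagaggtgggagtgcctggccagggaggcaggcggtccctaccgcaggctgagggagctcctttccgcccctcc
F13a1: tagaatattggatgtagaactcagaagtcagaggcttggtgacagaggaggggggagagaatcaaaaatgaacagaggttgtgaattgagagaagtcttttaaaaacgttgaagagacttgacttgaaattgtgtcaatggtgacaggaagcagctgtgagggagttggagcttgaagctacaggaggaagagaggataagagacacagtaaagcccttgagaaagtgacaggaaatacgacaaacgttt
Spp1: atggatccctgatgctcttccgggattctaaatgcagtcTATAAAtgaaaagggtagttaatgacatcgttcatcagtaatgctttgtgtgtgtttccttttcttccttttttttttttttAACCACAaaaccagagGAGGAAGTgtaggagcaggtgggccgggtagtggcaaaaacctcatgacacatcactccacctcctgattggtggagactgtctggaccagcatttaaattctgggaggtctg
Plaur: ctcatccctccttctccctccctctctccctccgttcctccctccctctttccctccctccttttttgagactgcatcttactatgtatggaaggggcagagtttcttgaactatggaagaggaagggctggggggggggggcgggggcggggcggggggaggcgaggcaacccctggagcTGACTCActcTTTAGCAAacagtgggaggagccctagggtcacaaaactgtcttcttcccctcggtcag

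Both strands of each window were searched for 6 short motifs. They were AP-1 (TGANTCA, in 6.75% of 32851 promoter windows of this length), PU.1 (GAGGAAGT, 2.44%), C/EBP (TTGCNNAA, 9.56%), RUNX (AACCACA, 4.4%), the TATA box (TATAAA, 12.4%) and CRE (TGACGTCA, 1.55%). None of the 6 was found in the Vcan window or the F13a1 window. The Spp1 window held TATAAA with its first base 211 bases before the start, the RUNX letters at 129 and the PU.1 letters at 113. The Plaur window held the AP-1 letters at 69 bases before the start and the C/EBP letters, on the opposite strand, at 59. These are matches of letters, not shown binding sites. In all, 7 of the 10 genes had an entry in the table.

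The genes lie on 10 loci of mm10, all annotated as protein-coding in GENCODE vM21. Those of the matrix proteins and the crosslinker are Thbs1 at chr2:118111876-118127133, Fn1 at chr1:71585520-71653200, Spp1 at chr5:104435118-104441050, Vcan at chr13:89655312-89742509 and F13a1 at chr13:36867178-37050244. The proteinases are Mmp12 at chr9:7344381-7369499, Mmp14 at chr14:54431612-54445364 and Mmp19 at chr10:128790910-128800824. Timp2 is at chr11:118301069-118355740 and Plaur at chr7:24462484-24475968. Vcan and F13a1 are both on chromosome 13 but far apart.

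The 10 genes differed widely in how many cells held them. Plaur was found in 64 of 73 cells and Fn1 in 56, while Thbs1 and F13a1 were each found in 42 and Vcan in 40. Mmp19 was found in 16 cells, Spp1 and Timp2 in 14 each, Mmp12 in 5 and Mmp14 in 4. A cell held a median of 4 of the 10 genes, from 0 in 1 cell to 6 in 14 cells, and no cell held more than 6.

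**Figure D1:**
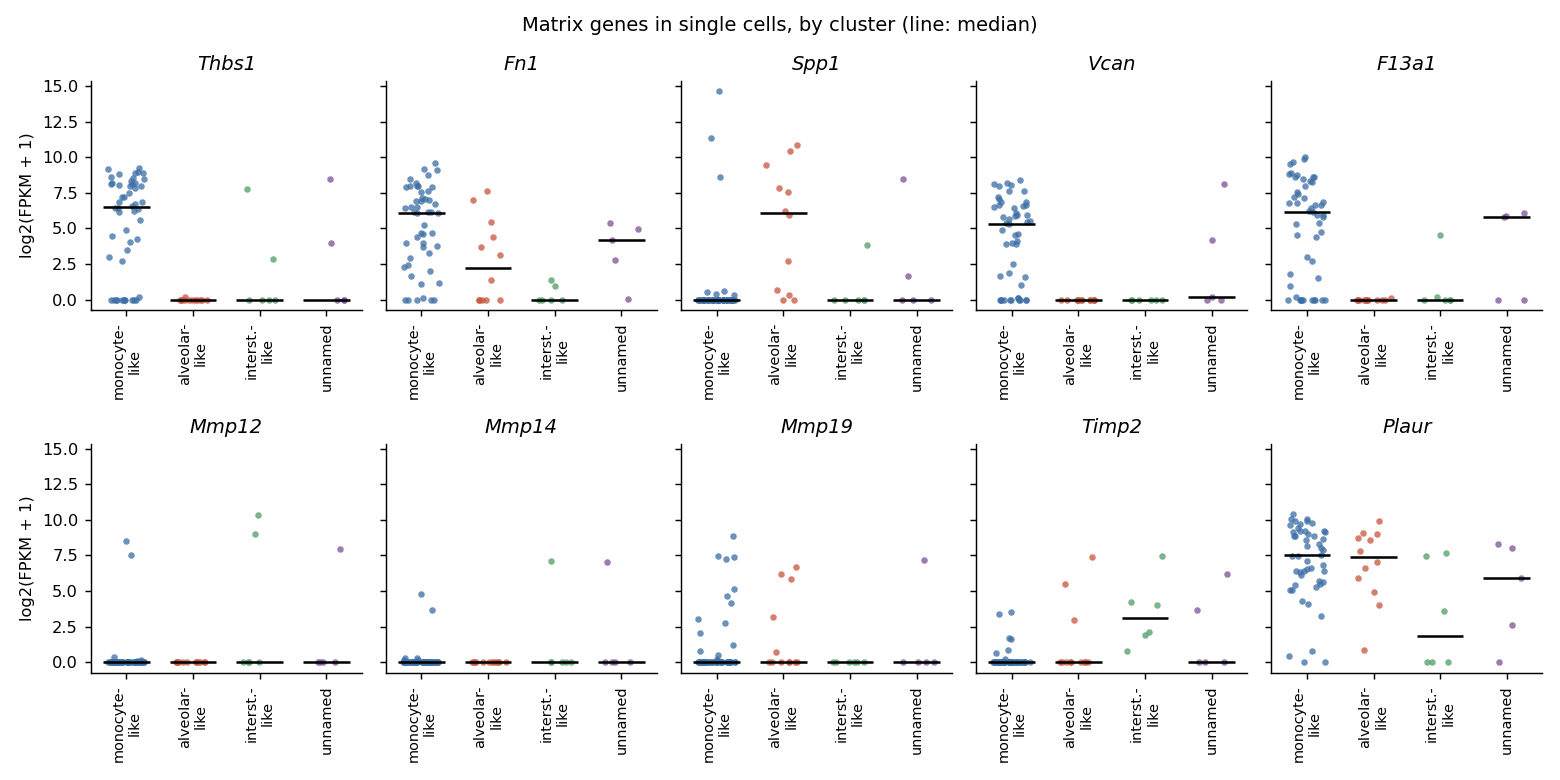
Level of each of the 10 genes in every cell (vertical axis, log2(FPKM + 1)), with 1 point per cell, arranged by cluster along the horizontal axis, and a line at each cluster's median. Thbs1, Vcan and F13a1 are filled mainly by classical-monocyte-like cells, Spp1 by alveolar-macrophage-like cells, and Mmp12 and Mmp14 are at or near 0 in all but 5 and 4 cells.

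Thbs1 encodes thrombospondin 1, a secreted matricellular protein that binds matrix and cell surfaces and can activate latent TGF-beta. In the 50 monocyte-like cells its FPKM ran from 0 to 595 with a median of 91.5 and a mean of 160 ± 174 (SD, n = 50 cells), and 38 of them held it (76%, interval 61.8 to 86.9). In the 12 alveolar-like cells it reached no more than 0.132 FPKM. Thus 0 of 12 held it, which allows a share of up to 26.5%, the upper end of the interval. Among the 6 interstitial-like cells 2 held it, with a highest value of 211. The 5 unnamed cells stood at 0, 0, 0, 14.5 and 348 FPKM. Thbs1 was thus spread over monocyte-like cells and missing from 12 of them, and every alveolar-like cell lay below the detection level.

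Fn1, which encodes fibronectin, a fibrous glycoprotein that cells bind through integrins, was found in more cells than the other matrix proteins among the 10 genes. Its FPKM ran from 0 to 769 in the monocyte-like cells, with a median of 67.4 and a mean of 123 ± 167 (SD, n = 50 cells), and 44 of 50 held it. In the alveolar-like cells it ran from 0 to 196, with a median of 4.58 and a mean of 33.6 ± 62.1 (SD, n = 12 cells), and 7 of 12 held it. The ranges overlapped: the highest alveolar-like cells, at 196 and 124, stood above the median monocyte-like cell. Only 1 of 6 interstitial-like cells held Fn1, while the 5 unnamed cells had 0.0498, 5.99, 17.3, 30.3 and 40.3 FPKM.

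Vcan encodes versican, a large proteoglycan that carries chondroitin sulphate chains and binds hyaluronan. It ran from 0 to 329 FPKM in monocyte-like cells, with a median of 39.1 and a mean of 68.7 ± 88.4 (SD, n = 50 cells), and 38 of 50 held it. It was listed at 0 in all 12 alveolar-like cells and in all 6 interstitial-like cells. These counts of 0 allow shares of up to 26.5% and 45.9%. In the unnamed cells it stood at 0, 0, 0.132, 16.7 and 278 FPKM. No cell of either macrophage-like cluster had a Vcan value above 0, while 12 monocyte-like cells also lay below the detection level.

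F13a1 encodes the catalytic subunit of coagulation factor XIII, a transglutaminase that crosslinks fibrin and fibronectin and that monocytes are known to make. Its FPKM ran from 0 to 1009 in monocyte-like cells, with a median of 70.96 and a mean of 179 ± 252 (SD, n = 50 cells), and 38 of 50 held it. None of 12 alveolar-like cells and 1 of 6 interstitial-like cells held it. The unnamed cells stood at 0, 0, 53.7, 57.3 and 67.5 FPKM. Platelets also carry factor XIII and thrombospondin. Of 8 platelet marker genes, Gp9, Gp1bb, Treml1 and Gp6 were listed at 0 in every cell, and no cell held 3 of the 8. Clec1b was found in 4 cells, among them the cell with the highest Thbs1, and Ppbp, Itga2b and Gp5 in 1 cell each. Their summed level had a median of 0 in every cluster and a highest value of 21.1 FPKM in monocyte-like, 335 in alveolar-like and 1060 in interstitial-like cells, and its part in these values was not tested.

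Thbs1, Fn1, Vcan and F13a1 were each found in most monocyte-like cells, and most of these cells held several of them. Of the 50 monocyte-like cells, 27 held all 4, 14 held 3, 4 held 2, 0 held 1 and 5 held none. Of the 12 alveolar-like cells, 7 held 1 of the 4, which was Fn1 in each, and 5 held none. The 6 interstitial-like cells held 2 at most, and the 5 unnamed cells held 0, 1, 3, 3 and 4.

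The number of these 4 genes moved with the classical monocyte markers within the monocyte-like cluster. The 29 cells with 9 or 10 of the 10 markers held a median of 4 of the 4 genes, with a range from 2 to 4. The 16 cells with 6 to 8 markers held a median of 3.5, and the 5 cells with 5 markers or fewer a median of 0. Depth did not follow that order, with medians of 1484025, 1143179 and 1926481 mouse fragments. What part either measure has in the gene counts was not tested.

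Spp1 encodes osteopontin, a secreted phosphoprotein that binds integrins and CD44, and it had another distribution. It was found in 8 of 12 alveolar-like cells, whose FPKM ran from 0 to 1869 with a median of 67.8 and a mean of 378 ± 627 (SD, n = 12 cells). Only 3 of 50 monocyte-like cells held it, with 25044, 2537 and 395 FPKM. The cells at 25044 and 2537 lay above every alveolar-like cell, so the levels overlapped although the shares were far apart. The single cell with 25044 FPKM, cell 83, gave 76.1% of all Spp1 FPKM over the 73 cells, and 5.12% of its own mouse fragments were Spp1. With this cell the monocyte-like mean was 560 ± 3552, above the alveolar-like mean, and without it the mean was 59.9 ± 366 (SD, n = 49 cells), below it. The direction of the difference in mean FPKM therefore turned on 1 cell, and the shares did not.

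Mmp12 and Mmp14 were found in few cells. Mmp12, the macrophage elastase, was held by 5 cells at 1292 and 515 FPKM in the interstitial-like cluster, 371 and 180 in the monocyte-like cluster and 246 in the unnamed cluster. None of 12 alveolar-like cells held it, a count that allows up to 26.5%. Mmp14, a membrane-bound metalloproteinase that cleaves collagen and activates other proteinases, was held by 4 cells at 137, 129, 26.7 and 11.9 FPKM. These were high levels in single cells, and at 5 and 4 cells neither gene could be compared between clusters.

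Mmp19, a secreted metalloproteinase, was held by 16 cells (21.9%, interval 13.1 to 33.1), of which 11 were monocyte-like, 4 alveolar-like and 1 unnamed. Its highest values were 458, 179, 166, 153, 142 and 100 FPKM, and its mean over all cells was 19.6 ± 65.1 (SD, n = 73 cells). Tmem198b, a gene on the opposite strand, overlaps Mmp19 and was found in 31 cells, among them 13 of the 16 with Mmp19. The libraries are not stated to keep strand, so reads of the shared stretch cannot be told apart, and the Mmp19 values are uncertain for that reason.

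Timp2, an inhibitor of metalloproteinases that also takes part in activating MMP2 at the cell surface, was the gene with the highest share in interstitial-like cells. All but 1 of these 6 cells held it, at 178, 17.6, 15.5, 3.37 and 2.69 FPKM, with 0.736 in the sixth. Timp2 was also held by 4 of 50 monocyte-like and 3 of 12 alveolar-like cells. Of those 4 monocyte-like cells, cells 38 and 54 held at least 3 endothelial markers at FPKM of 10 or more. The mean was 36.3 ± 69.8 (SD, n = 6 cells) in the interstitial-like cells and 0.512 ± 1.99 (SD, n = 50 cells) in the monocyte-like cells. The interstitial-like mean rests mostly on 1 cell, and the 2 sets of values overlap. Cep295nl, a protein-coding gene annotated on the same strand, overlaps Timp2, and its part in the Timp2 values was not tested. Of 12 fibroblast marker genes, 8 were found in some cell and 6 in an interstitial-like cell, and no cell held 3 of the list at FPKM of 10 or more. Gpx3 was found in 17 cells (highest 464 FPKM), Acta2 in 5 (highest 257), and Dcn, Pdgfrb, Mfap4, Inmt, Col1a1 and Col3a1 in 1 cell each, while Col1a2 and Lum were listed at 0 in every cell. The cell with the highest Timp2 held Gpx3, Inmt (36.4 FPKM) and Mfap4 (1.42 FPKM). Their summed level reached 720 FPKM in an interstitial-like cell, with a median of 3.77 in that cluster, and its part in the Timp2 values was not tested.

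Plaur encodes the urokinase receptor, and it was the gene found in most cells. In monocyte-like cells its mean was 340 ± 355 FPKM with a median of 180 (SD, n = 50 cells), and 46 of 50 held it. In alveolar-like cells the mean was 282 ± 293 with a median of 175 (SD, n = 12 cells), and 11 of 12 held it. The difference between these means was smaller than the spread between cells of either cluster. Levels were lower in the interstitial-like cells, with a mean of 66 ± 98.4 (SD, n = 6 cells) and 3 of 6 holding it, and the 5 unnamed cells stood at 0, 5.10, 58.7, 253 and 321 FPKM.

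Alveolar-like and monocyte-like cells were then compared by the share of cells that held each gene, after thinning every cell to 347003 mouse fragments. A difference of 30 percentage points was called. Of the 10 genes, 8 were found in at least 8 cells and entered this comparison, and Mmp12 and Mmp14 did not. Spp1 was called higher in alveolar-like cells, with 9 of 12 against 4 of 50 cells after thinning, a difference of 67 points (60.7 without thinning). Thbs1, Vcan and F13a1 were called lower, by differences of -76, -74 and -78 points. Fn1 missed the threshold narrowly with -29.7 points, while Timp2 (17 points), Mmp19 (11.3 points) and Plaur (-0.333 points) lay well inside it.

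For background, 12.1% of the 6151 genes found in at least 8 cells were called higher in alveolar-like cells and 3.74% were called lower. Of the 8 genes, 1 was higher and 3 were lower, and their median difference was -15 points against 5.67 points over all genes compared. The 1 gene higher of 8 is close to the background share. The 3 genes lower of 8 stand above it, with only 8 genes behind the count. Thbs1, Vcan and F13a1 reached the 8 cells needed only through other clusters, mainly the monocyte-like one, with 38 cells each. Spp1 reached it with 8 alveolar-like cells among its 14. All 8 genes were also chosen with earlier results of these data known, so the counts are a description and support no shift of matrix genes. On the scale of mean log2(FPKM + 1), the differences were -5.29 for Thbs1, -5.16 for F13a1, -4.24 for Vcan, -2.40 for Fn1 and 4.45 for Spp1. All 5 values depend on the pseudocount of 1. With a pseudocount of 0.1 they were -7.73, -7.66, -6.73, -3.40 and 6.59 in the same order. For Vcan, all alveolar-like cells were at 0.

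**Figure D2:**
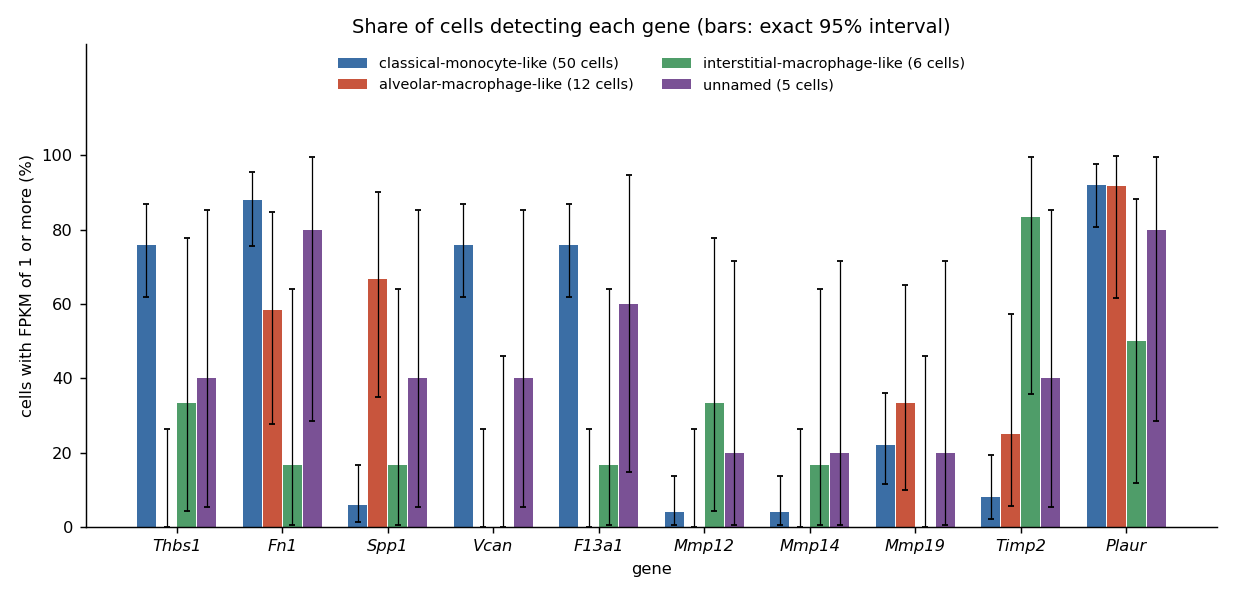
Share of cells (percent, vertical axis) with FPKM of 1 or more for each of the 10 genes, by cluster, with exact Clopper-Pearson 95% intervals that cover counting error only. Thbs1, Vcan and F13a1 stand at 76% of monocyte-like cells and 0 of 12 alveolar-like cells, and Plaur is high in both.

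Joint detection of the 45 pairs of genes was set beside the number of cells that independent detection would give. Over all 73 cells, 3 pairs were found together more often. Thbs1 and F13a1 were found in the same 34 cells against 24.2 expected, Vcan and F13a1 in 34 against 23.0, and Thbs1 and Vcan in 33 against 23.0. Spp1 and F13a1 were found together less often, in 2 cells against 8.05 expected, and for the other 41 pairs the expected share lay within the interval of the observed share. Within the 50 monocyte-like cells, the expected share lay within that interval for 45 of 45 pairs. The 3 pairs were each found together in 32 of these cells against 28.9 expected. This comparison cannot show that joint detection is absent inside the cluster, because genes held by most cells leave little room above the expected number. All 38 cells with F13a1 also held Fn1, and the 33.4 expected still lay within the interval.

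The levels are given as a description. Across all 73 cells, Spearman's rho was 0.63 for Vcan and F13a1, 0.59 for Fn1 and F13a1, 0.57 for Thbs1 and F13a1, 0.56 for Fn1 and Vcan, 0.49 for Thbs1 and Vcan and 0.47 for Thbs1 and Fn1. Within the 50 monocyte-like cells the same pairs gave 0.41, 0.51, 0.38, 0.36, 0.28 and 0.26. Spp1 and F13a1 had -0.48 over all cells and -0.30 within the monocyte-like cells. The cells share their mouse and differ in depth, so these values are given with no test.

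**Figure D3:**
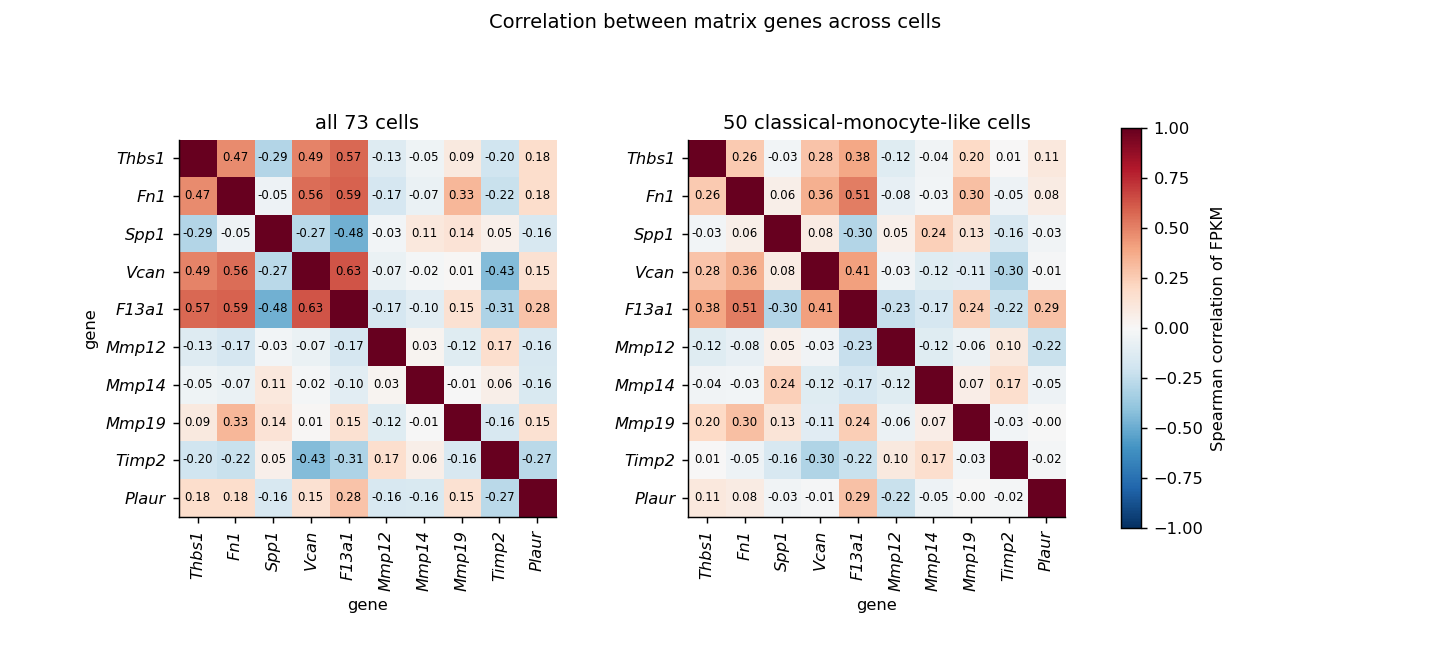
Spearman correlation of FPKM (colour scale from -1 to 1) between the 10 genes, over all 73 cells on the left and over the 50 classical-monocyte-like cells on the right. Thbs1, Fn1, Vcan and F13a1 form a block of positive values, from 0.47 to 0.63 on the left and from 0.26 to 0.51 on the right.

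The genes whose levels ran most like those of the 4 were compared over the 73 cells among 3959 genes found in at least 15 cells. Hp, which encodes haptoglobin, came first for each of them, with rho of 0.74 for F13a1, 0.69 for Vcan, 0.67 for Fn1 and 0.61 for Thbs1. Ccr2, the chemokine receptor of classical monocytes, was among the first 5 for each, with 0.70 for F13a1, 0.67 for Vcan, 0.54 for Fn1 and 0.53 for Thbs1. Both are leading genes of the monocyte-like cluster, and within its 50 cells Hp had 0.56 with F13a1, 0.47 with Vcan, 0.56 with Fn1 and 0.44 with Thbs1. Plaur ran most like Lyz2, the macrophage lysozyme (0.59), and Actg1, a cytoplasmic actin (0.53). Mmp19 ran most like Tmem198b (0.53), the gene it overlaps, followed by Nrros (0.46) and Ctsl (0.45).

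The 36 deeper cells held a median of 5 of the 10 genes and the other 37 a median of 4, with the same medians after thinning to one depth. The difference of 1 gene became 0.5 at FPKM of 10 or more and 0 without cells under 2000 genes. Spearman's rho between the number of genes held and mouse fragments was 0.26 over 73 cells and 0.41 within the 50 monocyte-like cells. With the number of all genes detected in the cell it was 0.21 and 0.57. With mouse fragments divided by spike-in fragments, a measure of RNA captured per cell, it was 0.24 and 0.46. The part of captured RNA in the differences between cells was not tested.

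**Figure D4:**
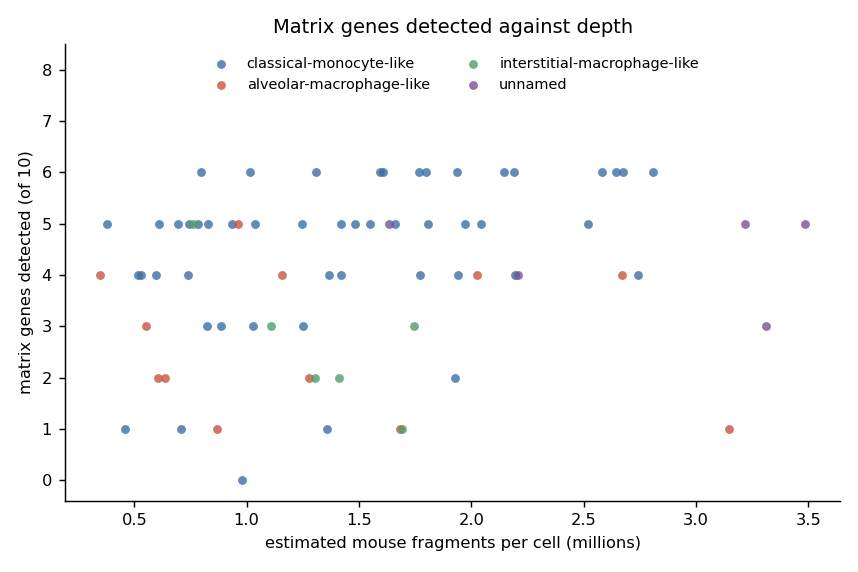
Number of the 10 genes held per cell at FPKM of 1 or more (vertical axis) against the cell's mouse fragments (horizontal axis), with 1 point per cell, coloured by cluster. The number runs from 0 to 6, with a median of 5 in the monocyte-like cells and 2.5 in the alveolar-like cells, and points of both clusters lie along most of the depth range.

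The ratio of fragments to FPKM gives an estimate of the transcript length that the authors' tools used for a gene in each cell. It varied for Vcan and, less, for Fn1. It was calibrated on 173 genes with 1 transcript, at a ratio of 2.18 per kb (quartiles 2.03 and 2.30). The lengths are therefore approximate: Thbs1, with 1 coding transcript of 5848 bases in GENCODE vM21, came out at a median of 6232 bases. Over the cells that held it, the Vcan length ran from 4.42 to 12.04 kb, a ratio of 2.73 between the longest and the shortest. By ranges set after the values were seen, 9 cells lay at 4.42 to 4.85 kb, 8 at 6.07 to 9.04 kb, 20 at 9.33 to 10.6 kb and 3 at 11.05 to 12.04 kb. Versican RNA is known to be spliced with or without large exons that carry the chondroitin sulphate attachment regions. The cells of the shortest range held a median of 529 Vcan fragments (28 to 1294) and those of the 20-cell range 1446.5 (62 to 10732), so the fragment numbers overlapped. Median Vcan FPKM was 54.4 in the shortest range and 53.1 in the 20-cell range. The part of fragment number in the implied length was not tested.

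For Fn1, whose alternatively spliced exons are short, 35 cells lay at 8.12 to 8.18 kb and 21 at 8.25 to 8.68 kb. Their medians differed by 284 bases. The 21 cells with longer values had a median of 2972 Fn1 fragments and the 35 others 468, and the ranges overlapped. For the other 8 genes the longest and shortest values differed by a ratio of at most 1.05. The same number of Vcan fragments therefore gives different FPKM in different cells.

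**Figure D5:**
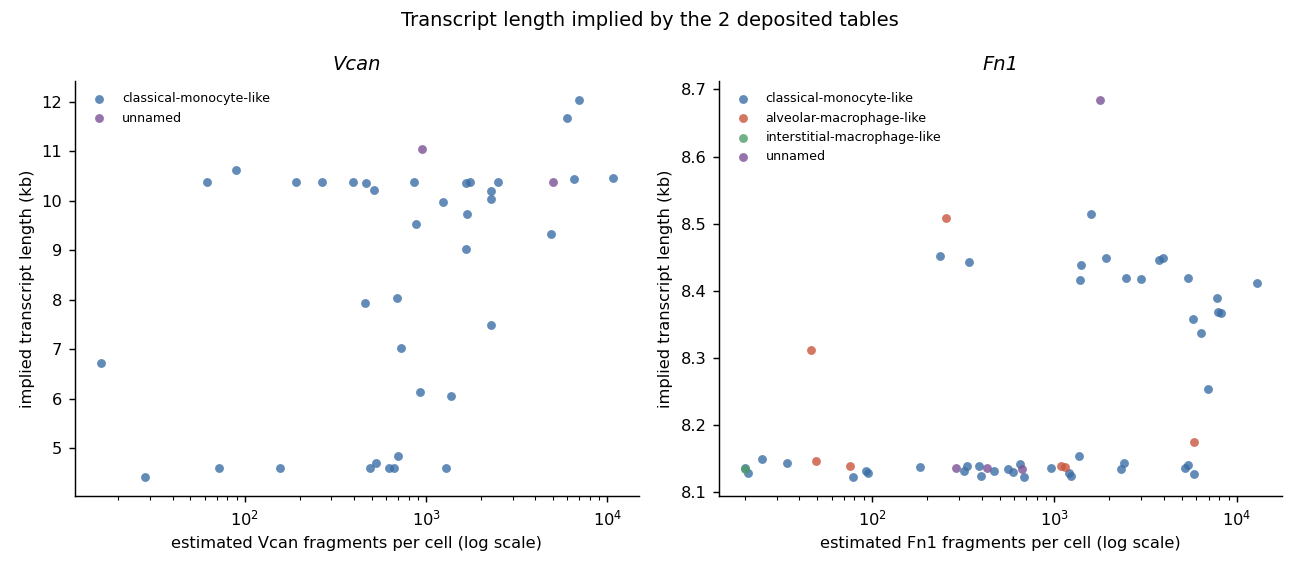
Transcript length implied by the ratio of fragments to FPKM (vertical axis, kb) against the gene's fragments in the cell (horizontal axis, log scale), for Vcan on the left and Fn1 on the right, with 1 point per cell with FPKM of 1 or more, coloured by cluster. Vcan is spread from 4.42 to 12.04 kb, and Fn1 has 35 cells at 8.12 to 8.18 kb and 21 cells from 8.25 to 8.68 kb.

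Other genes of matrix biology were read from a list of 172 genes in 7 roles, of which 67 were found in at least 8 cells. Of these, 16 were called higher in alveolar-like cells (23.9%) and 4 lower (5.97%), beside 12.1% and 3.74% of all genes compared. The counts by role rest on few genes each. Among 40 matrix and matricellular genes, 7 were compared, and the 1 called was Emilin2, an elastin-associated glycoprotein. Emilin2 was found in 43 of 50 monocyte-like cells and 1 of 12 alveolar-like cells, which is the direction of Thbs1, Vcan and F13a1. Srgn, the proteoglycan of myeloid granules, was found in 72 cells with a mean of 1942 ± 1448 FPKM (SD, n = 50 cells) in monocyte-like cells and 107 ± 152 (SD, n = 12 cells) in alveolar-like cells. Tgfbi and Lgals3 were each found in 12 of 12 alveolar-like cells, against 42 and 47 of 50 monocyte-like cells. The Lgals3 mean was 1177 ± 885 (SD, n = 12 cells) in alveolar-like and 614 ± 461 (SD, n = 50 cells) in monocyte-like cells. For Tgfbi the means were 112 ± 123 and 178 ± 243 in the same order. The fibrillar collagen genes Col1a1 and Col3a1 were found in 1 cell each. Other genes of this role were found in too few cells to be compared. Some of them were found in monocyte-like cells only, and some mostly in interstitial-like cells. Mgp (highest 1992 FPKM) and Bgn (highest 138) were found in 5 cells each, 4 of them interstitial-like. Sparc (highest 359) was found in 4 cells, 3 of them interstitial-like. Of 15 genes of crosslinking and hyaluronan, 6 were compared and Plod3, a collagen lysine hydroxylase, was called higher, by 43 points.

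Among 30 metalloproteinase genes, 6 were compared and 0 were called in either direction. Mmp8, a collagenase stored in granules, was found in 35 cells, 30 of them monocyte-like, and the sheddases Adam10 and Adam17 in 53 and 44. Among 21 cathepsin and plasminogen activator genes, 14 were compared and 5 (35.7%) were called higher in alveolar-like cells, with Ctsk, the collagen-degrading cathepsin K, at 92 points, coagulation factor VII (F7) at 79.3 and Ctsd at 52. Plau, which encodes the ligand of the Plaur receptor, was found in 12 cells, 5 of them monocyte-like, against 64 cells for the receptor. Among 21 inhibitor genes, 7 were compared and 2 (28.6%) were called higher, among them Serpinb6a, a serine protease inhibitor, at 79.3 points. Timp1 and Timp3 were found in 4 and 5 cells, fewer than the 14 with Timp2.

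Of 28 matrix receptor genes, 19 were compared, and 5 (26.3%) were called higher and 3 (15.8%) lower in alveolar-like cells. Fpr1 and the integrin gene Itgax were higher by 77.3 and 75.7 points, and Itgam, the integrin subunit of Mac-1, was lower by -72 points. Fpr1 and Fpr2, the latter higher by 42.3 points, encode formyl peptide receptors. The count of genes called higher thus does not rest on receptors of matrix alone. Cd44, a receptor for hyaluronan and osteopontin, was found in 71 cells and Itgb2, a leukocyte integrin subunit, in 59. Of 17 genes of the TGF-beta axis, 8 were compared and 3 (37.5%) were called higher, with Ski at 63.3 points and the receptors Tgfbr2 and Tgfbr1 at 57 and 38.3. Tgfb1 itself was found in 3 cells.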

How the data were processed

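RNA of 73 single cells from 1 mouse was amplified (Fluidigm C1, SMARTer, Nextera XT, per the labels' protocols). Build mm10 and the programs Cufflinks 2.2.1, Cuffnorm, TopHat2 2.1.0 and CASAVA 1.8 are named per the submitters' processing notes. Annotation and cell filters are not given in the sources used here. FPKM values, as deposited, were normalised by the authors' tools. The second deposited table holds a signal, fragments scaled per cell. Of 99703 values between 0.5 and 20 steps, 99.6% were whole to within 0.1 step, and dividing by the step gave fragments. All columns were matched to cells by number, with 0 left unused. Of 100 spike-in rows, taken out, 1 held values.

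Clustering used log2(FPKM + 1) of 1000 variable genes, 10 principal components and Ward linkage, without 181 matrix genes. The cut of 2 to 6 clusters with the highest silhouette and at least 5 cells each was taken, and a name needed 3 markers among the 10 leading genes. No doublet caller was run. Intervals are exact Clopper-Pearson at 95%, for counting error only, and the share that a count of 0 allows is the upper end of its interval. Thinning used 20 draws, the first for counts. The script was tested on simulated data. The genes named are the 10, and by role up to 4 with the highest mean and up to 3 with the largest called difference. To these come the 5 genes most correlated with each of the 10 found in at least 15 cells, and the markers beside a result. A few others (Plau, Timp1, Timp3, Col1a1, Col3a1, Mgp, Bgn, Sparc, Fpr2 and Tgfb1) were chosen after their values were seen. A gene that this rule names is not reported here. The 10 genes and all lists were chosen with earlier results of these data known. Alternatives were other thresholds, cell filters, clusterings and calls. Python 3.11.15, scipy 1.17.1 and scikit-learn 1.9.0 were used.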

Additional observations from a re-analysis of the deposited data

How the results depend on the processing

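The median number of genes per cell was 4 or 5, and the calls for Spp1 (higher) and for Thbs1, Vcan and F13a1 (lower), held under every alternative run, the other clusterings included, in which the alveolar-like cluster always had 12 cells. The difference of 1 gene per cell between deeper and other cells became 0.5 at FPKM of 10 or more and 0 without cells under 2000 genes. Counts that moved by over 1.5 times are these 7. The 3 pairs found together above independence became 1 with any FPKM above 0 and 5 at FPKM of 10 or more. The 1 pair below became 2 at FPKM of 10 or more, with thinned cells, without cells under 2000 genes and without cells carrying other lineage markers. The cells carrying such markers were monocyte-like cells 2, 38 and 54, with endothelial markers, and unnamed cell 30, with neutrophil markers. The 4 matrix genes called lower became 2 with a call at 40 points. The Fn1 difference of -29.7 points passed 30 at FPKM of 10 or more (-30.3), without cells under 2000 genes (-35.8) and without the cells with other lineage markers (-31.0), and it is past a call at 20 points. The difference in mean FPKM of Spp1, alveolar-like minus monocyte-like, turned from -182 to 318 without cell 83, an alternative chosen after seeing the data. The cause of these shifts was not tested, other than that 1 cell decides the Spp1 mean. Clustering with no filter on low genes gave no cut of the minimum size and has no values. No paired analysis was possible because the study has 1 group. The small number of cells limits the rare genes: 3 cells are 25% of the alveolar-like cluster and 50% of the interstitial-like cluster. After thinning to one depth, Mmp12 was still found in 5 cells and Mmp14 in 4.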

Other observations

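A few cells held matrix genes in combinations that differ from the common one of Thbs1, Fn1, Vcan and F13a1. Cell 83, with the highest Spp1, also held Fn1, Vcan, Mmp14, Mmp19 and Plaur, and 3 of the 10 classical monocyte markers and 3 of the 14 alveolar macrophage markers. Cell 76, with the second highest Spp1, held it together with Thbs1, Fn1, Vcan, F13a1 and Plaur. Cell 25, of the unnamed cluster, held Spp1, Mmp12 and Mmp14, and with them 8 of 12 markers of dividing cells and 6 of 6 class II genes. Cells 11 and 32, with the highest Mmp12, each held Timp2 and Plaur and no classical monocyte marker, and they held 9 and 7 of the 12 interstitial macrophage markers.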
